A study of Homo sapiens with 12 samples.

Results

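The 4 kinases that phosphorylate the translation factor eIF2-alpha, the 2 phosphatase subunits that reverse it, and the transcription factor ATF4 with 3 genes of its stress programme were followed through a CRISPR activation experiment. These 10 genes (EIF2AK1, EIF2AK2, EIF2AK3, EIF2AK4, PPP1R15A, PPP1R15B, ATF4, DDIT3, TRIB3 and NUPR1) were chosen by symbol and are 10 of the 60604 genes in the deposited table of read counts. All 10 were found there, and all 10 passed the filter on low counts.

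RNA was sequenced from HEK293T, a line of human embryonic kidney cells transformed with adenoviral DNA and carrying a large T antigen. The cells were grown in 100 mm dishes and harvested at 48 h, and cells given plasmid were transfected with lipofectamine. Cells of the guide group received dCas9-VP160, a nuclease-dead Cas9 fused to a viral activation domain (plasmid labelled sgRNA-dCas9-VP160-P2A-EGF), with 6 guide RNAs for the CD34 promoter. Cells of the dCas9-VP160 group received that plasmid without the guides, with a plasmid total of 5.4 pmol per dish in either transfected group.

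Cells of the no plasmid group are called non-transfected in one place of the labels and reagent-treated in another. The 12 libraries comprise, for each group, 2 experiments done on different batches of cells and a pair of technical replicates within each experiment. No group received a plasmid lacking dCas9-VP160, so an effect of plasmid DNA and an effect of the protein cannot be told apart. If the no plasmid cells were non-transfected, an effect of the lipofectamine cannot be told apart from these. The share of cells that took up plasmid is not known here, so a large change in some cells and a small change in all cells cannot be told apart either, nor can fewer cells of a type and less RNA per cell.

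When eIF2-alpha is phosphorylated, most translation slows while the ATF4 message is translated better, a response known as the integrated stress response. Each kinase is known for another trigger: haem lack or mitochondrial stress for EIF2AK1 (HRI), double-stranded RNA for EIF2AK2 (PKR), unfolded protein in the endoplasmic reticulum for EIF2AK3 (PERK), and uncharged tRNA for EIF2AK4 (GCN2). The kinases and eIF2-alpha are controlled largely at the protein level, which RNA sequencing does not measure.

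Gene counts per library ran between 6750035 and 11932244, and between 26115 and 28418 genes had at least 1 count. Spike-in sequences made up at most 0.719% of counts in the no plasmid libraries of experiment 1 and at most 0.00818% elsewhere. CD34, the target, averaged 99.3 ± 4.15 CPM (read counts adjusted for library size by TMM factors) with guides, 0.887 ± 0.0171 CPM with dCas9-VP160 and 2.06 ± 0.000694 CPM without plasmid (SD, n = 2 experiments). Mitochondrially encoded genes took 5.57 to 7.50% of counts with guides, 5.14 to 5.63% with dCas9-VP160 and 8.31 to 8.78% without plasmid. The summed level of 8 kidney lineage markers was 29.96 to 34.4 CPM with guides, 34.1 to 39.8 CPM with dCas9-VP160 and 50.6 to 57.5 CPM without plasmid, and 6 of the 8 fell in dCas9-VP160 against no plasmid. Of these markers EYA1 and SIX2 led, whereas PAX2, PAX8 and CDH1 never exceeded 2.27 CPM in a library. The blood cell gene PTPRC and the fibroblast gene DCN were at 0 counts in 11 of 12 libraries, and the liver gene ALB never exceeded 0.441 CPM. The part of the mitochondrial share and of the kidney markers in the results on the members was not tested. A fit that leaves out the mitochondrially encoded genes is among the alternatives given at the end.

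Levels below are TMM-normalised CPM, each mean is given with the SD of 2 experiments, and a gene was called at an edgeR quasi-likelihood adjusted p (Benjamini-Hochberg over 19662 genes) under 0.05. The comparisons of either transfected group with no plasmid share the no plasmid libraries, and the guide comparison shares the dCas9-VP160 libraries with one of them, so they are not independent of each other. For several members the libraries of different groups are said below not to overlap. How often this occurs among all tested genes was not counted, and technical replicates are not independent libraries. Against no plasmid, 7 of the 10 genes rose with dCas9-VP160 and none fell, where 26.6% of all tested genes were called higher and 24.6% lower. The median log2 fold change was 0.51 over the 10 genes and -0.0020 over all tested genes. With guides against no plasmid, 7 of the 10 rose and none fell, where 26.7% of all tested genes were called higher and 25.9% lower (medians 0.56 and -0.016). Adding the guides to dCas9-VP160 was accompanied by 3 genes called higher and 1 called lower, where the background was 4.16% called higher and 3.41% called lower. These guide calls were lost when the batch of cells was left out of the model.

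**Figure D1:**
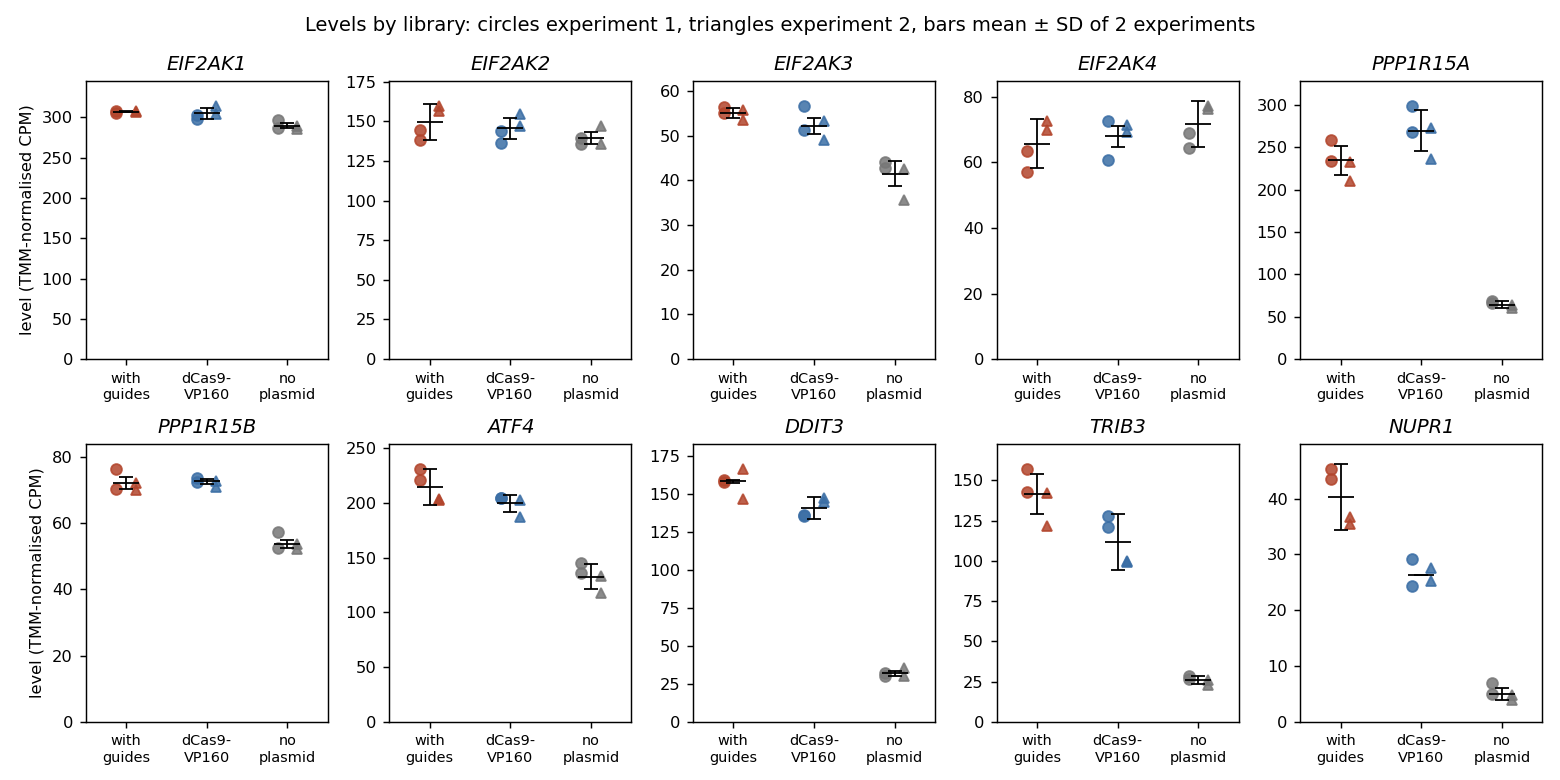
Level of each of the 10 genes in the 12 libraries, in TMM-normalised CPM on axes that start at 0, for cells with guides, with dCas9-VP160 and without plasmid; circles are experiment 1, triangles experiment 2, and bars the mean and SD of 2 experiments. DDIT3, TRIB3, PPP1R15A and NUPR1 stand far above the no plasmid libraries in both transfected groups, whereas EIF2AK1, EIF2AK2 and EIF2AK4 lie close together in all 3 groups.

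Of the 4 kinases, EIF2AK3 passed the test against no plasmid in either transfected group, and the others did not in this fit, although EIF2AK1 (edgeR adjusted p = 0.0363) and EIF2AK2 (0.0411) passed for guides against no plasmid with RLE factors, and EIF2AK4 (0.00910) with upper quartile factors. EIF2AK3 is PERK, the kinase in the membrane of the endoplasmic reticulum (chr2:88556741-88627576, minus strand, coordinates of all members from GENCODE v29 on GRCh38). EIF2AK3 had 55.1, 56.5, 53.4 and 55.7 CPM with guides (replicates 1 and 2 of experiment 1, then of experiment 2). It had 51.4, 56.6, 53.2 and 49.1 CPM with dCas9-VP160 and 42.8, 44.2, 35.6 and 42.6 CPM without plasmid. Every transfected library lay above every no plasmid library. The log2 fold change was 0.33 (SE 0.0612, edgeR adjusted p = 5.08e-05) for dCas9-VP160 against no plasmid and 0.41 (SE 0.0616, edgeR adjusted p = 2.84e-06) for guides against no plasmid. An antisense gene, AC104134.1, shares 781 exonic bases with EIF2AK3 and rose by 0.27 on the log2 scale in dCas9-VP160 against no plasmid (edgeR adjusted p = 0.0315). The library kits do not mark the strand, so reads of the pair cannot be told apart, and AC104134.1 averaged 16.0 CPM with guides.

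EIF2AK1, EIF2AK2 and EIF2AK4 were not called against no plasmid. EIF2AK1 (chr7:6022244-6059230, minus strand), the haem-regulated kinase, averaged 307 ± 0.145 CPM with guides, 305 ± 6.78 CPM with dCas9-VP160 and 289 ± 3.15 CPM without plasmid. Its log2 fold change was 0.08 for dCas9-VP160 against no plasmid (95% interval 0.00 to 0.15, edgeR adjusted p = 0.0770) and 0.09 for guides against no plasmid (0.01 to 0.16, edgeR adjusted p = 0.0510). Its lowest transfected library (298.4 CPM, with dCas9-VP160) lay just above its highest library without plasmid (297.0 CPM). Both adjusted p-values lay just outside the threshold. EIF2AK1 shares 532 exonic bases with AIMP2 on the opposite strand, a scaffold protein of the tRNA synthetase complex that rose by 0.75 on the log2 scale in dCas9-VP160 against no plasmid.

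EIF2AK2 (chr2:37099210-37157065, minus strand), the kinase of double-stranded RNA and itself an interferon-induced gene, averaged 149.8 ± 11.3 CPM with guides, 146 ± 6.73 CPM with dCas9-VP160 and 139.5 ± 3.56 CPM without plasmid. Its log2 fold change was 0.06 in dCas9-VP160 against no plasmid (95% interval -0.03 to 0.15, edgeR adjusted p = 0.249) and 0.10 in guides against no plasmid (0.01 to 0.19, edgeR adjusted p = 0.0542). The upper bound of the interval for dCas9-VP160 corresponds to 1.11-fold, and the libraries of the groups overlapped. EIF2AK2 shares 401 exonic bases with a processed pseudogene, AC007899.1, and 35 with GPATCH11, both on the opposite strand. EIF2AK4 (chr15:39934146-40035591, plus strand), the kinase of amino acid shortage, averaged 65.8 ± 7.54 CPM with guides, 67.9 ± 3.32 CPM with dCas9-VP160 and 71.8 ± 6.95 CPM without plasmid. Its log2 fold change was -0.08 in dCas9-VP160 against no plasmid (95% interval -0.19 to 0.03, edgeR adjusted p = 0.233) and -0.13 in guides against no plasmid (-0.24 to -0.01, edgeR adjusted p = 0.0561). It was the sole kinase with fold changes below 0, and its libraries overlapped between groups.

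Compared per kilobase of the principal transcript in GENCODE v29 (the longest where there are several), EIF2AK1 made up 64.0 ± 1.35% of the summed kinase level with guides, 64.2 ± 0.0220% with dCas9-VP160 and 64.4 ± 0.897% without plasmid. The share of EIF2AK3 was 11.0 ± 0.458% with guides, 10.6 ± 0.607% with dCas9-VP160 and 8.87 ± 0.630% without plasmid, and its libraries with guides or dCas9-VP160 (9.79 to 11.4%) did not overlap those without plasmid (7.68 to 9.32%). The share of EIF2AK4 was 11.1 ± 1.05% with guides, 11.6 ± 0.306% with dCas9-VP160 and 13.0 ± 1.22% without plasmid. The share of EIF2AK2 was 13.9 ± 0.759% with guides, 13.6 ± 0.322% with dCas9-VP160 and 13.8 ± 0.310% without plasmid. All 4 shares depend on which principal transcript of EIF2AK2 is taken, since they measure 4343 and 10042 bases. With the shorter one, a choice added after the data were seen, EIF2AK1 made up 54.1% with guides, 54.5% with dCas9-VP160 and 54.5% without plasmid, EIF2AK2 27.1%, 26.7% and 27.0% in those groups, and EIF2AK3 9.34%, 8.96% and 7.51%. EIF2AK4 then made up 9.41% with guides, 9.85% with dCas9-VP160 and 11.0% without plasmid.

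The 2 phosphatase subunits both rose, by very different amounts. PPP1R15A (GADD34, chr19:48872392-48876057, plus strand) is the subunit that stress induces to bring protein phosphatase 1 to eIF2-alpha, and PPP1R15B (CReP, chr1:204403387-204411791, minus strand) is its constitutive counterpart. PPP1R15A had 259, 234, 232 and 210.1 CPM with guides, in the library order used above. It had 299, 269, 273 and 236 CPM with dCas9-VP160 and 66.3, 68.3, 63.5 and 59.7 CPM without plasmid. The lowest transfected library held more than 3 times the level of the highest library without plasmid. The fold was 4.19 for dCas9-VP160 against no plasmid (log2 2.07, SE 0.0432, edgeR adjusted p = 6.82e-23) and 3.65 for guides against no plasmid (log2 1.87, SE 0.0437, edgeR adjusted p = 4.22e-22).

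PPP1R15B had 76.3, 70.2, 70.0 and 72.0 CPM with guides, 73.5, 72.4, 71.0 and 72.8 CPM with dCas9-VP160, and 57.4, 52.6, 53.6 and 52.1 CPM without plasmid. No transfected library overlapped a no plasmid library. The fold was 1.35 for dCas9-VP160 against no plasmid (log2 0.44, SE 0.0545, edgeR adjusted p = 1.67e-07) and 1.34 for guides against no plasmid (log2 0.43, SE 0.0552, edgeR adjusted p = 2.92e-07). Per kilobase, the ratio of PPP1R15A to PPP1R15B was 7.15 ± 0.348 with guides, 8.16 ± 0.651 with dCas9-VP160 and 2.64 ± 0.109 without plasmid. The ratio spanned 6.41 to 8.93 over the 8 transfected libraries and 2.52 to 2.86 over the 4 libraries without plasmid.

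Promoter sequences were searched for sites of the factors of this pathway. RefSeq promoters of GRCh38.p14, searched over the 250 bases before the start, were found for 8 of the 10 genes, and not for EIF2AK1 and NUPR1. The cyclic AMP response element TGACGTCA, to which ATF and CREB factors bind, was present in PPP1R15A at 58 to 51 bases before the start, as it was in 1.765% of 27305 promoters. The C/EBP-ATF composite site TTGCATCA, known from ATF4 target genes, was present in PPP1R15B at 227 to 220 bases before the start, on the strand opposite to the gene (so that the gene's strand reads TGATGCAA), as it was in 0.8204% of those promoters. Both strands were searched, and no match of one motif overlaps a match of another. The 4 stretches below were chosen to show these 2 matches and, beside them, DDIT3 and TRIB3, 2 strongly raised genes with neither motif in that window. They are written 5′ to 3′ on the strand of the gene, with exonic bases left out and motif matches in capitals.
PPP1R15A, chr19:48872272-48872391, plus strand: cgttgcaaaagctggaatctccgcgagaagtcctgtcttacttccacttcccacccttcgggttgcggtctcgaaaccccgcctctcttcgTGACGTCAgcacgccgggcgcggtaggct
PPP1R15B, chr1:204411945-204412064, minus strand: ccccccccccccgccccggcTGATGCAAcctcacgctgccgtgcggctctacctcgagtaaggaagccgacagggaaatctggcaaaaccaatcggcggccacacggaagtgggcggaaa
DDIT3, chr12:57520518-57520637, minus strand: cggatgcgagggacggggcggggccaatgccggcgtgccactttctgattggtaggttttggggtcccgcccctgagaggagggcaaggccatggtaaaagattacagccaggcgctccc
TRIB3, chr20:381170-381245, plus strand: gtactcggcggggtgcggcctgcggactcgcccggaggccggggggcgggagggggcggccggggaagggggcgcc
A match is a description of letters and not a shown site, and the lack of one says only that these letters are not in this window. The endoplasmic reticulum stress element was searched as CCAAT, 9 bases of any kind and CCACG, present in 0.08057% of promoters. An interferon-type element was searched as GAAA, any 2 bases and GAAA, present in 3.073%. Neither had an exact match in any of the 8 genes. The DDIT3 stretch above reads ccaat, 9 bases and ccact, which departs from the first element in its last base. Other near matches were not sought.

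ATF4 itself rose less than the 3 genes of its programme, and its 95% intervals against no plasmid did not overlap theirs. ATF4 (chr22:39519695-39522685, plus strand) is the bZIP factor whose translation the pathway raises, and its RNA had 231, 221, 202 and 204 CPM with guides. It had 205, 205, 202 and 187 CPM with dCas9-VP160 and 136, 145, 133 and 118 CPM without plasmid. All 8 transfected libraries lay above the 4 without plasmid. The fold was 1.51 for dCas9-VP160 against no plasmid (log2 0.59, SE 0.0416, edgeR adjusted p = 4.85e-12) and 1.62 for guides against no plasmid (log2 0.69, SE 0.0417, edgeR adjusted p = 1.48e-13). Processed copies of ATF4 elsewhere in the genome (ATF4P1 to ATF4P4) could share reads with it. ATF4P1 and ATF4P2 had 0 counts in every library, ATF4P3 at most 1 count and ATF4P4 at most 3 counts.

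DDIT3 (CHOP, chr12:57516588-57521737, minus strand), the C/EBP-family factor tied to cell death under lasting stress, had 159, 158, 167 and 147 CPM with guides. It had 135, 136, 145 and 147 CPM with dCas9-VP160 and 31.8, 29.9, 29.9 and 35.7 CPM without plasmid. The transfected libraries were all above 135 CPM and the others all below 36 CPM. The fold was 4.43 for dCas9-VP160 against no plasmid (log2 2.15, SE 0.0541, edgeR adjusted p = 3.20e-21) and 4.98 for guides against no plasmid (log2 2.32, SE 0.0540, edgeR adjusted p = 4.22e-22). DDIT3 shares 355 exonic bases with MARS1, the methionyl-tRNA synthetase on the opposite strand. MARS1 rose by 0.91 on the log2 scale in dCas9-VP160 against no plasmid (edgeR adjusted p = 1.96e-17), so some reads of either gene may be counted for the other.

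TRIB3 (chr20:362835-397559, plus strand), a pseudokinase that restrains AKT and ATF4, had 157, 143, 142 and 122 CPM with guides. It had 121, 128, 99.8 and 99.1 CPM with dCas9-VP160 and 26.7, 28.7, 25.8 and 23.1 CPM without plasmid. Libraries with and without plasmid did not overlap. The fold was 4.28 for dCas9-VP160 against no plasmid (log2 2.10, SE 0.0584, edgeR adjusted p = 1.92e-20) and 5.44 for guides against no plasmid (log2 2.44, SE 0.0577, edgeR adjusted p = 4.38e-22).

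NUPR1 (chr16:28532708-28539174, minus strand), a small chromatin-associated stress protein, was the lowest member, and its fold was the largest by estimate. It had 45.3, 43.5, 36.7 and 35.4 CPM with guides, 24.3, 29.1, 27.5 and 25.2 CPM with dCas9-VP160, and 6.90, 4.95, 4.73 and 3.82 CPM without plasmid. These rest on 249 to 404 counts per library with guides, 199 to 303 with dCas9-VP160 and 41 to 59 without plasmid. The 3 groups did not overlap. The fold was 5.28 for dCas9-VP160 against no plasmid (log2 2.40, SE 0.114, edgeR adjusted p = 1.60e-15) and 8.06 for guides against no plasmid (log2 3.01, SE 0.108, edgeR adjusted p = 2.64e-18). In the ranking of 19662 genes by fold in dCas9-VP160 against no plasmid, NUPR1 was number 144, DDIT3 number 195, TRIB3 number 209 and PPP1R15A number 218, while ATF4 was number 2187.

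**Figure D2:**
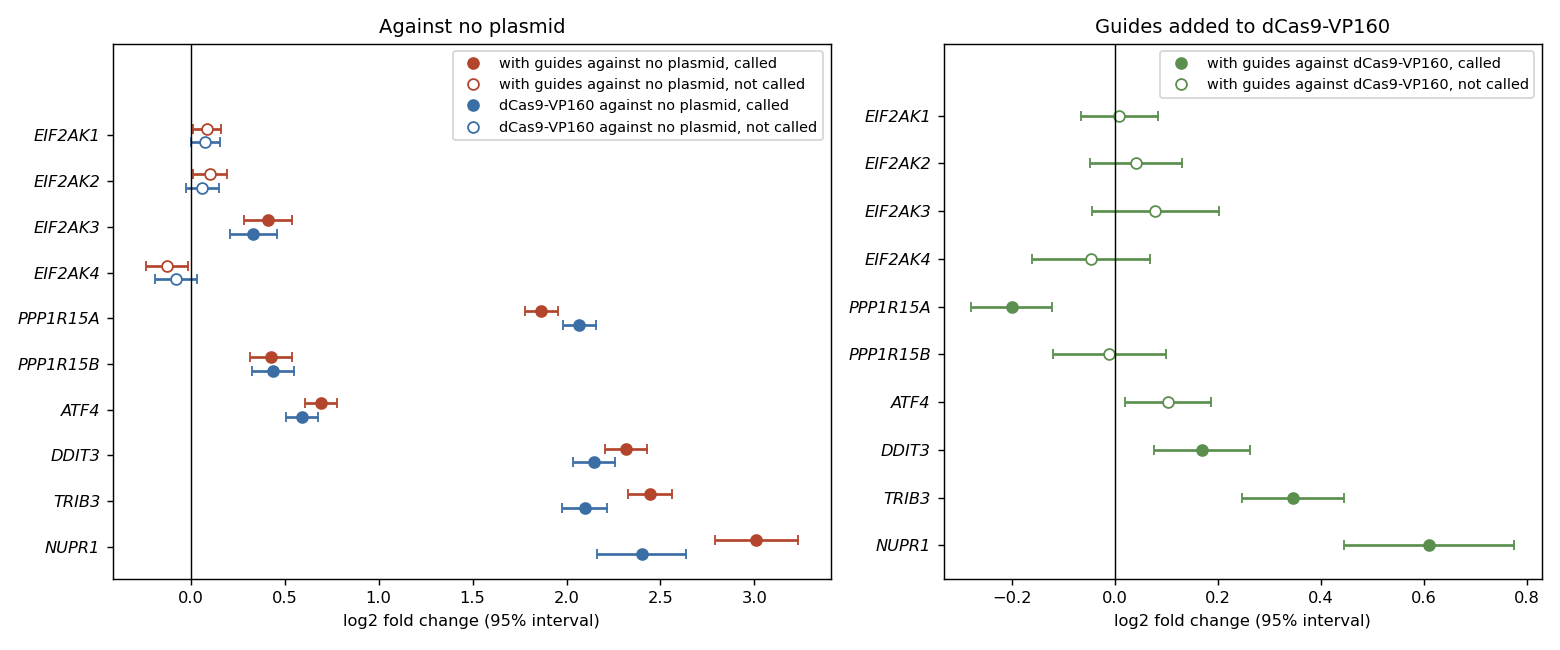
Log2 fold change of each gene with its 95% interval from the edgeR fit: left, guides and dCas9-VP160 each against no plasmid; right, guides against dCas9-VP160, on a narrower axis. Filled points were called and open points were not; PPP1R15A, DDIT3, TRIB3 and NUPR1 exceed 1.8 in both comparisons on the left, and PPP1R15A alone is called below 0 on the right.

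The authors' deposited table of 97 differential genes holds 4 of the 10 members: PPP1R15A, DDIT3, TRIB3 and NUPR1. In the authors' deposited table the log2 fold changes for the dCas9-VP160 and no plasmid groups were 2.05 for PPP1R15A, 2.13 for DDIT3, 2.08 for TRIB3 and 2.39 for NUPR1, with positive values meaning higher with dCas9-VP160. In all 97 rows of the authors' deposited table the test statistic has the sign of the log2 fold change. Its size there equals the absolute log2 fold change minus 1, divided by its standard error (tolerance 1e-06). ATF4, PPP1R15B and EIF2AK3, with changes smaller than 1 on the log2 scale, are not among the 97.

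Expressed per kilobase of the longest principal transcript, ATF4 and EIF2AK1 stood highest without plasmid, and DDIT3 stood highest in both transfected groups. With guides the order was DDIT3 (169 ± 0.923 CPM per kb), ATF4 (106 ± 8.20), PPP1R15A (98.7 ± 7.24), EIF2AK1 (68.7 ± 0.0325) and TRIB3 (56.6 ± 4.86). ATF4 and PPP1R15A did not differ there beyond their spread. With dCas9-VP160 it was DDIT3 (150.1 ± 7.87 CPM per kb), PPP1R15A (113 ± 10.2), ATF4 (98.8 ± 3.83), EIF2AK1 (68.4 ± 1.52) and TRIB3 (44.7 ± 6.91). Without plasmid it was ATF4 (65.7 ± 5.58 CPM per kb), EIF2AK1 (64.8 ± 0.705), DDIT3 (33.9 ± 1.86), PPP1R15A (27.0 ± 1.74) and EIF2AK2 (13.9 ± 0.355), and the first pair did not differ beyond their spread. EIF2AK2, PPP1R15B, EIF2AK4 and EIF2AK3 lay between 8.93 and 14.9 CPM per kb in every group, where neighbours often differed by less than their spread. Part of this order rests on the transcript taken. With the shortest principal transcripts, ATF4 (1419 in place of 2019 bases) was at 151 ± 11.7 CPM per kb with guides, 140.5 ± 5.45 with dCas9-VP160 and 93.5 ± 7.93 without plasmid, above PPP1R15A in both transfected groups and above EIF2AK1 without plasmid by more than their spread. EIF2AK2 was then at 34.5 ± 2.597 CPM per kb with guides, 33.5 ± 1.55 with dCas9-VP160 and 32.1 ± 0.820 without plasmid, above the other 3 genes of that range. DDIT3 remained first in both transfected groups. NUPR1 came last in every group, at 7.34 ± 1.07 CPM per kb with guides, 4.78 ± 0.00208 with dCas9-VP160 and 0.910 ± 0.200 without plasmid, for a principal transcript of 5491 bases. That length is both the longest and the shortest used for NUPR1, so its place was not checked at another length.

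**Figure D3:**
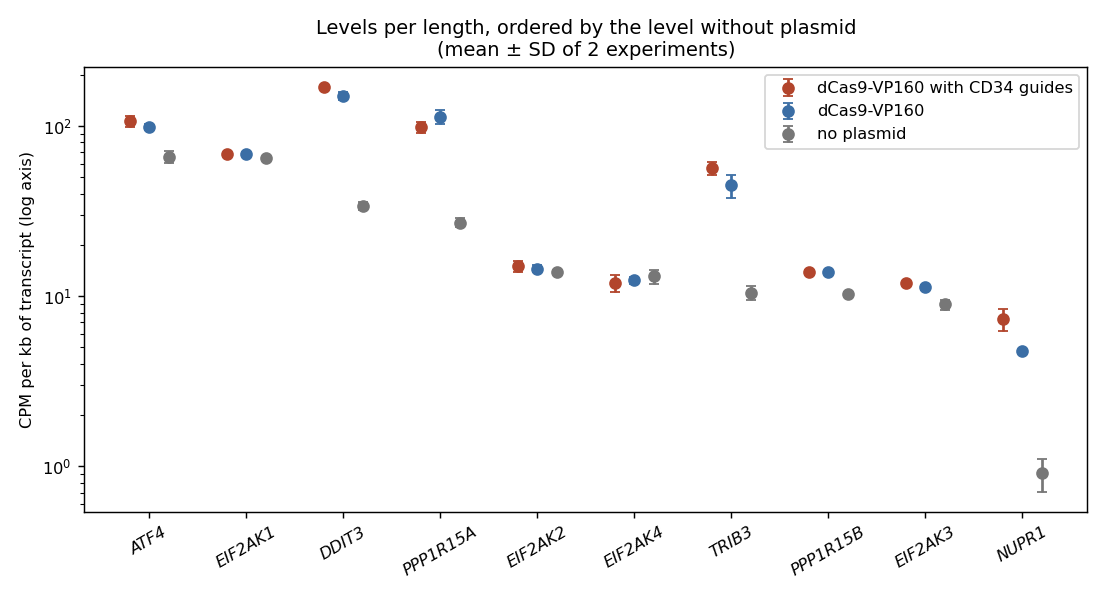
Level per kilobase of principal transcript for the 10 genes, on a log axis, ordered by the level without plasmid; points are means and bars the SD of 2 experiments for cells with guides, with dCas9-VP160 and without plasmid. The longest principal transcript was used; DDIT3 is the third gene without plasmid, at 33.9 CPM per kb, and the highest in both transfected groups.

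Set against ATF4 per kilobase, the level of DDIT3 was 1.59 ± 0.114 with guides, 1.52 ± 0.139 with dCas9-VP160 and 0.519 ± 0.0725 without plasmid. The ratio of TRIB3 to ATF4 was 0.533 ± 0.00462 with guides, 0.452 ± 0.0525 with dCas9-VP160 and 0.158 ± 0.00146 without plasmid. The ratio of NUPR1 to ATF4 was 0.0689 ± 0.00476 with guides, 0.0484 ± 0.00190 with dCas9-VP160 and 0.0138 ± 0.00187 without plasmid. For each ratio the transfected libraries did not overlap the libraries without plasmid. With the shortest principal transcripts these ratios are lower, each by a factor that is the same in all groups: that of DDIT3 to ATF4 is then 1.20 with guides, 1.15 with dCas9-VP160 and 0.391 without plasmid. Only for the ratio of NUPR1 to ATF4 did the libraries with guides (0.0640 to 0.0725) also stand clear of those with dCas9-VP160 (0.0436 to 0.0523).

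**Figure D4:**
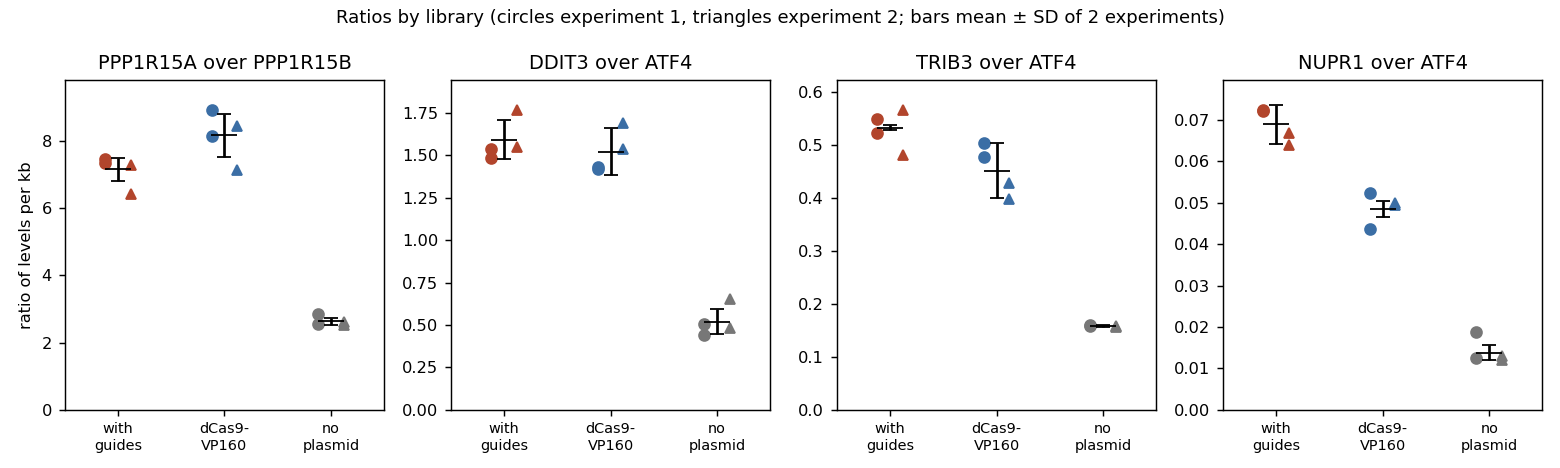
Ratios of levels per kilobase in each library, on axes that start at 0: PPP1R15A to PPP1R15B, and DDIT3, TRIB3 and NUPR1 to ATF4, for cells with guides, with dCas9-VP160 and without plasmid; circles are experiment 1, triangles experiment 2, and bars the mean and SD of 2 experiments. All 8 transfected libraries lie above the 4 libraries without plasmid in every panel.

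Adding the CD34 guides to dCas9-VP160 asked whether the members also differed between the transfected groups. No group received guides other than those for CD34. An effect of guides as such and an effect of raised CD34 therefore cannot be told apart, here or in the lists below. NUPR1 rose 1.53-fold in the guide libraries (log2 0.61, SE 0.0803, edgeR adjusted p = 1.62e-05). Its libraries held 35.4 to 45.3 CPM with guides and 24.3 to 29.1 CPM with dCas9-VP160. How often such a gap occurs among all tested genes was not counted. For TRIB3, DDIT3 and PPP1R15A the libraries of these groups overlapped. TRIB3 rose 1.27-fold (log2 0.35, SE 0.0479, edgeR adjusted p = 3.34e-05), with its lowest guide library between dCas9-VP160 libraries of experiment 1. DDIT3 rose 1.12-fold (log2 0.17, SE 0.0453, edgeR adjusted p = 0.0200). PPP1R15A, the other strongly raised member, instead fell to 235 ± 17.2 CPM in the guide group, against 269.9 ± 24.4 CPM in the dCas9-VP160 group (log2 -0.20, SE 0.0386, edgeR adjusted p = 0.00136). In each experiment taken on its own, the summed guide libraries lay above the dCas9-VP160 libraries for NUPR1, TRIB3 and DDIT3 and below them for PPP1R15A.

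ATF4 had a log2 fold change of 0.10 (95% interval 0.02 to 0.19, edgeR adjusted p = 0.128) in that comparison, and PPP1R15B one of -0.01 (-0.12 to 0.10, edgeR adjusted p = 0.937). The 4 kinases had log2 fold changes of -0.05 to 0.08, with adjusted p-values of at least 0.504 by edgeR. Without the batch of cells as a block none of the 4 guide calls passed: the edgeR adjusted p was 0.338 for NUPR1, 0.589 for TRIB3, 0.689 for DDIT3 and 0.683 for PPP1R15A, and 1 gene of 19662 was called in all. Over all alternatives the adjusted p ranged from 2.25e-13 to 0.338 for NUPR1, 3.62e-11 to 0.589 for TRIB3, 0.00330 to 0.689 for DDIT3 and 1.88e-05 to 0.683 for PPP1R15A.

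The batches of cells also differed from each other. In experiment 2 against experiment 1, 2 members were called higher and 3 lower, where 12% of tested genes were called higher and 12.2% lower. EIF2AK4 was higher by 0.18 on the log2 scale (SE 0.0450, edgeR adjusted p = 0.00466) and EIF2AK2 by 0.10 (SE 0.0354, edgeR adjusted p = 0.0406). TRIB3 fell by 0.23 (SE 0.0433, edgeR adjusted p = 2.05e-04), PPP1R15A fell by 0.16 (SE 0.0336, edgeR adjusted p = 8.84e-04) and ATF4 fell by 0.14 (SE 0.0337, edgeR adjusted p = 0.00378). The EIF2AK2 value missed the threshold in 17 of 27 alternatives, with edgeR or DESeq2 adjusted p-values from 0.00833 to 0.461. Whether the response itself differed between the batches was tested with an interaction term over the 12 libraries, a fit in which technical replicates set the spread. No member was called for dCas9-VP160 against no plasmid, where 0.0116% of 17218 tested genes were, nor for guides against dCas9-VP160, where 0% were. At an unadjusted p under 0.05 the same edgeR tests gave 898 genes (5.22%) and 701 genes (4.07%), close to the share that this threshold passes with no difference. NUPR1 came nearest in both, with a log2 difference between experiments of 0.45 (95% interval -0.05 to 0.95, unadjusted p = 0.0770, edgeR adjusted p = 0.961) for dCas9-VP160 against no plasmid and of -0.29 (-0.61 to 0.03, unadjusted p = 0.0753, edgeR adjusted p = 0.998) for guides against dCas9-VP160.

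Genes around the members were followed in 8 lists that hold no member. In dCas9-VP160 against no plasmid 26.6% of all tested genes were called higher and 24.6% lower. In guides against dCas9-VP160 the shares were 4.16% higher and 3.41% lower. Without the batch of cells as a block, 1 gene of 19662 was called in guides against dCas9-VP160. Guide calls in these lists thus rest largely on that block. The heterotrimer eIF2 and its exchange factor eIF2B, the substrate and the target of the pathway, gave 7 of 8 subunits higher and none lower in dCas9-VP160 against no plasmid, with a median log2 fold change of 0.28 against -0.0020 over all tested genes. EIF2S1, which encodes eIF2-alpha, averaged 268 CPM with guides, 247 CPM with dCas9-VP160 and 146 CPM without plasmid (log2 0.77 in dCas9-VP160 against no plasmid, SE 0.0394, edgeR adjusted p = 8.24e-15). EIF2S2 rose by 0.74 and EIF2B2 by 0.70 on the same scale, while EIF2S3, named after its value was seen, had -0.05. None of the 8 was called in guides against dCas9-VP160.

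Regulators of the kinases and phosphatases did not share a direction, with 6 higher, 5 lower and 3 not called of 14 in dCas9-VP160 against no plasmid (median log2 fold change -0.01). DELE1, which relays mitochondrial stress to EIF2AK1, fell by 0.60. HSPA5, the chaperone BiP that holds EIF2AK3 inactive, rose by 0.58, and DNAJC3, a co-chaperone that inhibits EIF2AK2 and EIF2AK3, rose by 0.49. In guides against dCas9-VP160 both rose as well, HSPA5 by 0.27 (edgeR adjusted p = 3.23e-06) and DNAJC3 by 0.21 (edgeR adjusted p = 0.0242).

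Partners of ATF4 and related bZIP factors gave 6 higher and 1 lower of 10 (median 0.68) in dCas9-VP160 against no plasmid. CEBPG, a dimer partner of ATF4, rose by 1.36, CEBPB by 1.34 and ATF3, a stress-induced factor, by 1.19 on the log2 scale. ATF3 shared the direction of PPP1R15A in guides against dCas9-VP160, at -0.17 (SE 0.0466, edgeR adjusted p = 0.0196). The one lower gene was NFE2L1, named after its value was seen.

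The metabolic targets of ATF4 moved in 1 direction almost throughout. Of 18 tested genes of amino acid synthesis and transport 16 rose and 1 fell (median 0.71), and of 12 aminoacyl-tRNA synthetases all 12 rose (median 0.88). SLC7A11, the cystine carrier, rose by 2.55, its partner SLC3A2 by 2.11 and asparagine synthetase ASNS by 1.39. SLC3A2 averaged 743 CPM with guides, 726 CPM with dCas9-VP160 and 169 CPM without plasmid. Among the synthetases SARS1 rose by 1.35, YARS1 by 1.18 and CARS1 by 1.07. The gene that fell was SLC38A2, a neutral amino acid carrier, by 0.26, named after its value was seen. In guides against dCas9-VP160, 7 of the 18 and 6 of the 12 were called higher and none lower.

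The stress effectors downstream of ATF4 and CHOP were split. Of 17 tested, 8 rose, 2 fell and 7 were not called, so that the median was 0.05. CHAC1, which degrades glutathione, rose by 2.61, INHBE, a secreted TGF-beta family member, by 2.22 and GDF15, a stress-induced cytokine, by 1.44, although INHBE reached only 1.93 CPM with dCas9-VP160. The genes not called included the cell death genes BBC3 at 0.05, PMAIP1 at -0.02 and TNFRSF10B, a death receptor induced by CHOP, at -0.03, which were named after their values were seen. VLDLR at -0.77 and the cell death gene BCL2L11 at -0.48 were the 2 that fell.

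The other arms of the unfolded protein response gave 14 higher and 1 lower of 18 (median 0.24) in dCas9-VP160 against no plasmid, and 10 higher and none lower (median 0.19) in guides against dCas9-VP160. XBP1, the factor that IRE1 activates by splicing, averaged 575 CPM with guides, 447 CPM with dCas9-VP160 and 206 CPM without plasmid. It rose by 1.12 in dCas9-VP160 against no plasmid and by 0.36 in guides against dCas9-VP160 (edgeR adjusted p = 1.50e-07). HERPUD1, which serves the degradation of misfolded proteins, rose by 0.85 and SDF2L1 by 0.60 in dCas9-VP160 against no plasmid. HSPA5 stands in this list and in that of the regulators.

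Interferon-induced genes, the family EIF2AK2 belongs to, gave 9 higher, 3 lower and 2 not called of 14 (median 0.52) in dCas9-VP160 against no plasmid. IFIT2 averaged 19.3 CPM with guides, 9.17 CPM with dCas9-VP160 and 1.58 CPM without plasmid, a rise of 2.53 on the log2 scale with dCas9-VP160 and a further 1.07 with guides (edgeR adjusted p = 1.99e-06). ISG15 rose by 1.70, whereas IFI44 fell by 1.20 at levels of 1.11 CPM with dCas9-VP160 and 2.54 CPM without plasmid. EIF2AK2 was at a log2 fold change of 0.06 where the median of this list was 0.52.

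**Figure D5:**
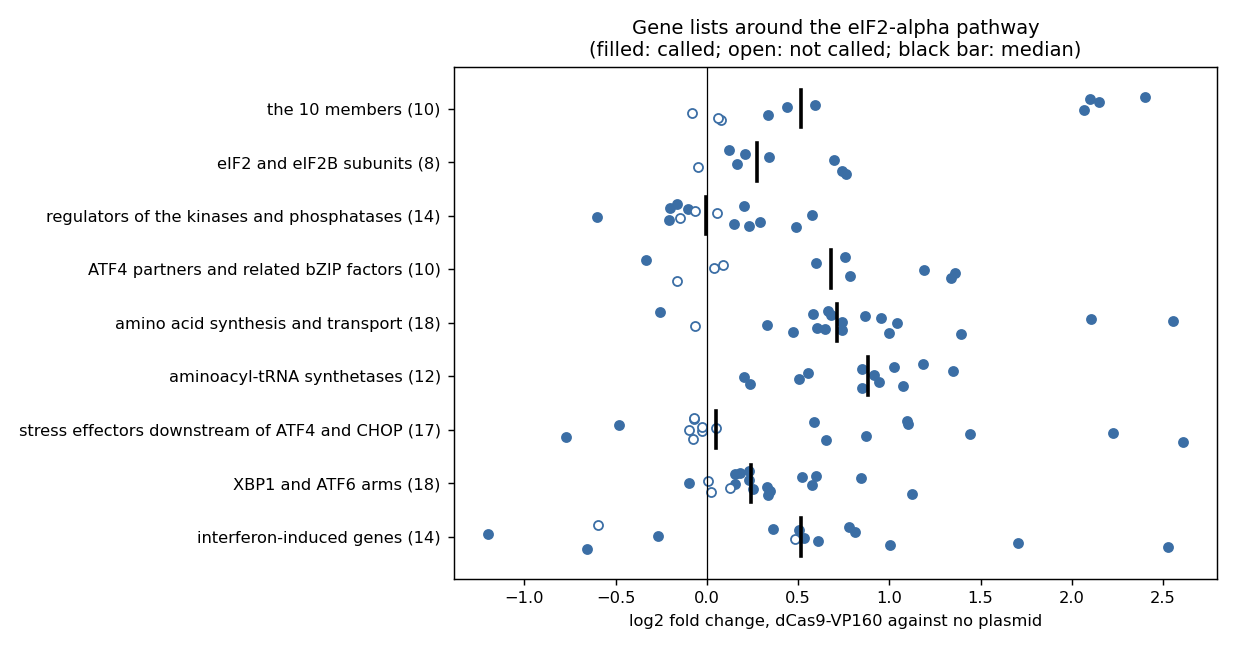
Log2 fold change in dCas9-VP160 against no plasmid for the 10 members and for each tested gene of 8 related lists; filled points were called, open points were not, and the black bar is the median. All 12 aminoacyl-tRNA synthetases lie above 0, while the 10 members and every other list hold values on both sides of 0.

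Genes most like each member were sought among 12215 symbols by the root mean square difference of centred log2 CPM over the 12 libraries. For ATF4 these were ALG3 (0.0453), CCND3 (0.0533) and NELFE (0.0563). For DDIT3 they were SLC3A2 (0.131), GADD45B (0.167) and IL32 (0.181). For PPP1R15A they were SLC3A2 (0.133), IL32 (0.169) and PTX3 (0.180). SLC3A2 was also first for TRIB3 (0.175), followed by UAP1L1 (0.183) and TP53I3 (0.190). The nearest to NUPR1 were SLC7A11 (0.235), GPNMB (0.238) and BEX1 (0.267), and to EIF2AK2 they were HUS1 (0.0400), GRSF1 (0.0409) and CDC23 (0.0428). Between members the smallest differences were those of EIF2AK1 and EIF2AK2 (0.0715), EIF2AK3 and PPP1R15B (0.102), and PPP1R15B and ATF4 (0.136), while DDIT3 and TRIB3 differed by 0.196. The difference was 0.733 between PPP1R15A and PPP1R15B and 0.761 between ATF4 and DDIT3. The libraries share depth and batch structure, and the size of a change weighs in this measure along with its pattern.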

How the data were processed

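The authors deposited raw read counts per gene, whole numbers with 1 column per library. Per the submitters' processing notes, Trim Galore 0.3.7, STAR 2.6.0c with hg38, Picard 2.17.1 and DESeq2 1.16.1 were used; the sources used here do not name the counting program or its annotation. Libraries were made from 1 ng of RNA with SMART-Seq HT and Nextera XT, which do not mark the strand although the labels call the assay directional. A second deposited table holds, per the file headers, the mean normalised signal (baseMean), log2 fold changes with standard errors, raw and adjusted p-values, and a test statistic, used here as a score, for 97 genes.

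Of 60604 gene identifiers, 41124 matched a symbol and 56812 matched GENCODE v29. The 92 spike-ins entered neither library sizes nor tests. Technical replicates, which are not independent, were summed to 6 libraries, so n = 2 experiments per group. Differences were tested by edgeR 4.0.16 under R 4.3.3 (low counts removed by filterByExpr, TMM, robust quasi-likelihood fit, experiment as block; 19662 genes, at least 99.8% of counts kept, common dispersion 8.88e-04, median prior 24.0 degrees of freedom), with Benjamini-Hochberg adjustment. The spread is thus partly borrowed from other genes. Standard errors are approximate, from the log2 fold change and the F statistic of its test. Per the labels, libraries with the same experiment number come from the same batch of cells; deviations of same-numbered libraries correlated at 0.616 to 0.631 across 12875 genes. The fit was tested on simulated data. DESeq2 1.42.0, other normalisations and filters, the 12 libraries unsummed, each library left out, and each experiment or technical replicate alone were alternatives.

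The members and lists were chosen with earlier results of these data known. From each list the 3 called genes with the largest absolute log2 fold change in dCas9-VP160 against no plasmid at a mean CPM of at least 1 were named. Likeness used symbols with a mean CPM of at least 5 and log2 values with a prior count of 2. Intervals cover the spread of the fit only, and 3 counts in a library correspond to 0.251 to 0.444 CPM without TMM factors. One gene of the kidney marker list is not reported here.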

Additional observations from a re-analysis of the deposited data

Results flagged for a closer look

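Among the 4 libraries of a group, 1 value of a member stood apart from the others by Dixon's criterion for 4 values (a gap of over 0.829 of the range). ATF4 was at 187.1 CPM in replicate 2 of experiment 2 with dCas9-VP160, where the other 3 libraries of that group held 202.3 to 204.6 CPM, a gap of 0.867 of the range. Of 30 sets of 4 libraries tested this way 1 was picked out. Chance picks out about 1 in 20 where the 4 values are independent, which technical replicates from different batches of cells are not. Without that library the call of ATF4 in dCas9-VP160 against no plasmid did not change.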

How the results depend on the processing

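The 7 members called higher against no plasmid kept that call in all 30 alternatives, with dCas9-VP160 and with guides. The fit with replicate block by experiment carried the guide calls: with no replicate block 0 members were higher and 0 lower in guides against dCas9-VP160, and 1 gene was called in all, against 817 higher and 670 lower with the block. DESeq2 called 288 higher and 80 lower there, and 3327 higher and 2529 lower for dCas9-VP160 against no plasmid, against 5234 and 4836 with edgeR. In guides against dCas9-VP160, replicates 2 alone gave 1 higher and 0 lower, each experiment alone gave 0 lower, and leaving out libraries gave 0 to 1 lower. PPP1R15A lost its call without guide experiment 1 (adjusted p = 0.0906) or without dCas9-VP160 experiment 1 replicate 1 (0.0511). DDIT3 lost its call in 11 of 30 alternatives, among them the fits without guide experiment 1 (0.457), dCas9-VP160 experiment 1 (0.227), guide experiment 2 replicate 1 (0.149), no plasmid experiment 2 replicate 2 (0.0889), dCas9-VP160 experiment 1 replicate 1 (0.0680) or guide experiment 1 replicate 1 (0.0673). ATF4 gained a call without dCas9-VP160 experiment 2 replicate 1 (0.0292). EIF2AK1 gained one in dCas9-VP160 against no plasmid without dCas9-VP160 experiment 1 (0.0401), dCas9-VP160 experiment 2 replicate 1 (0.0388) or no plasmid experiment 1 replicate 2 (0.0398). In guides against no plasmid, the lower count was 1 (EIF2AK4) with upper quartile factors and 0 to 1 when libraries were left out, while RLE factors, a mean CPM of at least 1 and leaving out mitochondrial genes added EIF2AK1 and EIF2AK2 as higher. Left-out libraries also added both: each gained that call in 9 of 30 alternatives, EIF2AK1 without dCas9-VP160 experiment 1 (0.0184) or 2 (0.0172), dCas9-VP160 experiment 1 replicate 2 (0.0440) or experiment 2 replicate 1 (0.0251), or no plasmid experiment 1 replicate 2 (0.0247) or experiment 2 replicate 1 (0.0304), and EIF2AK2 without dCas9-VP160 experiment 1 (0.0247) or 2 (0.0237), dCas9-VP160 experiment 2 replicate 1 (0.0315), no plasmid experiment 1 (0.0455) or its replicate 1 (0.0424), or guide experiment 1 replicate 2 (0.0291). Between experiments, DESeq2 gave 0 members higher, replicates 1 alone 1 higher and 1 lower, replicates 2 alone 0 higher, and leaving out libraries 0 to 2 higher; EIF2AK4 lost its call without guide experiment 1 (0.0658), guide experiment 2 (0.0596) or dCas9-VP160 experiment 1 replicate 1 (0.0736), and ATF4 without guide experiment 1 (0.0621), guide experiment 2 (0.0609) or no plasmid experiment 2 replicate 2 (0.0907). NUPR1, at -0.19 and not called between experiments, gained a lower call in 7 of 27 alternatives, at -0.33 without dCas9-VP160 experiment 1 (0.00374) or 2 (0.00397), and also without dCas9-VP160 experiment 1 replicate 1 (0.0104) or experiment 2 replicate 1 (0.0246), no plasmid experiment 1 replicate 2 (0.0449) or experiment 2 replicate 1 (0.0495), and with the 12 libraries unsummed (0.0474), so the count of 3 lower is not fixed. The results that turned direction were uncalled values near 0 on the log2 scale. In dCas9-VP160 against no plasmid, EIF2AK2 was at -0.0019 with replicates 2 alone. In guides against dCas9-VP160, PPP1R15B was at 9.57e-04 with DESeq2, 0.0169 with replicates 1 alone, 0.00335 in experiment 1 alone and -0.0378 to 0.0171 when libraries were left out. EIF2AK1 was there at -0.00418 with replicates 2 alone, -0.0135 in experiment 2 alone and -0.0184 to 0.0468 when libraries were left out, and EIF2AK4 at 0.0155 in experiment 2 alone and -0.1002 to 0.00891 when libraries were left out. Between experiments, replicates 2 alone gave -3.6e-04 for EIF2AK1 and 0.0121 for PPP1R15B, and leaving out libraries gave -0.0161 to 0.0223 for EIF2AK1. The causes were not tested. Depth limits NUPR1 most, at 41 to 59 counts per library without plasmid.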
